A study of Homo sapiens with 2 samples.

Results

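The probe sets described here are those that the array's annotation assigns to 2 or more genes at once. On this array, a probe set is a short stretch of an exon read by a few probes, and where genes were duplicated or overlap, the same probes can catch the transcripts of several of them. Of 287329 probe sets, 9155 carried several gene symbols. Of these, 208 named a single gene under 2 symbols, 26 named only clustered protocadherins and 243 named only genes of the MAGE, SSX, GAGE, PAGE, XAGE and SPANX families, and all of these were left out. This left 8678 probe sets (3.02% of all), which fell into 1278 groups that name exactly the same genes, called gene sets here. A gene set held a median of 3 probe sets, and 737 gene sets with 3 or more probe sets (7927 probe sets in all) were compared between the cell lines. The remaining 541 gene sets, with 1 or 2 probe sets each (751 in all), were read probe set by probe set.

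RNA came from HCT116, a human colorectal cancer cell line (HCT116-WT), and from its derivative HCT116-DKO, with the genotype DNMT1-/- DNMT3b-/-. The knockout line, DKO1, is a single isogenic line, so what it shares with other lines of this genotype was not measured. Cells of both lines grew untreated in the same serum-containing medium, and total RNA was hybridized to Affymetrix Human Exon arrays, with 1 array per line. Without replicates, no value below has a replicate error and no test was possible. An SD given beside a gene set describes how its probe sets scatter around their common difference.

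DNA methylation at CpG dinucleotides is copied to new strands by DNMT1 and laid down by the DNMT3 enzymes, and methylated CpG-rich promoters are as a rule silent. Some germline genes that are silent in somatic cells sit in recently duplicated parts of the genome and exist in several nearly identical copies. Such genes are often left out of array analyses, since a shared probe set cannot tell which copy was transcribed. In what follows a gene set is therefore named by all of its genes, and no value is assigned to any single one of them.

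The signal is given on a log2 scale, so a difference of 1 is a factor of 2. The level of a gene set is the median polish over its probe sets, a robust average, and all differences are HCT116-DKO minus HCT116-WT. Background was 7.08 for HCT116-WT and 7.30 for HCT116-DKO, the 95th percentile of 286 olfactory receptor genes, which are mostly silent outside the nose. A gene set is said to have risen or fallen when it differed by at least 1, when at least 75% of its probe sets shared the direction, and when the brighter of its levels exceeded background. A single probe set had to differ by at least 2, a factor of 4. For a gene set at or below background in the dimmer array, only a lower bound of the fold is given.

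The leading gene set was that of TUBA3C, TUBA3D and TUBA3E, alpha-tubulins known from the testis. Their promoters are printed first, because they show how close the copies are and how many CpG dinucleotides they carry. Each sequence covers the 250 bases before and the first 50 bases after the gene's start as annotated by RefSeq on GRCh38.p14, is written 5′ to 3′ on the gene's strand, and has every CpG in capitals. TUBA3C lies on chromosome 13 (chr13:19181775-19182074, minus strand), TUBA3D on chromosome 2 (chr2:131475869-131476168, plus strand) and TUBA3E on chromosome 2 (chr2:130198390-130198689, minus strand).
TUBA3C: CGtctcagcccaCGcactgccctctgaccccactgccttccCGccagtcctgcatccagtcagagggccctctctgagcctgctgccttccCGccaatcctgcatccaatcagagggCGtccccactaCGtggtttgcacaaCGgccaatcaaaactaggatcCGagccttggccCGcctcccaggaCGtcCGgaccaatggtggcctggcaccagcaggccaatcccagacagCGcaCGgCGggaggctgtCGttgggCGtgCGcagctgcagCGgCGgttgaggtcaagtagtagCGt
TUBA3D: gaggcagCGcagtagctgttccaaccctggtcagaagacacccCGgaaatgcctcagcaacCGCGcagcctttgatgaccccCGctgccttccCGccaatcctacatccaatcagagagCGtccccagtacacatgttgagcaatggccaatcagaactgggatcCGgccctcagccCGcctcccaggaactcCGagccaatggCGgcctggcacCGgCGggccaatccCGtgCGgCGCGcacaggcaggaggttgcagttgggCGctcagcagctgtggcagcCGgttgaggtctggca
TUBA3E: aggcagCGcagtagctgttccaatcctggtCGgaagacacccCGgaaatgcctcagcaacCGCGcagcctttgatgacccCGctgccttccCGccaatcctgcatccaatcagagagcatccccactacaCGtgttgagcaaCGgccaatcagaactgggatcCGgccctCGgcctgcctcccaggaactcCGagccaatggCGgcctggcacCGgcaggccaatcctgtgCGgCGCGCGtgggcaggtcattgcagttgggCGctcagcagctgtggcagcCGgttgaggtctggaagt

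The 3 promoters held 20, 19 and 20 CpG dinucleotides in this order, against a median of 12 in the 22114 promoters of the same length. TUBA3D and TUBA3E were identical at 92.7% of aligned positions, and TUBA3C matched them at 70.1% and 71.2%. A second pair of promoters is printed for the opposite reason. SPESP1, which encodes a protein of the sperm equatorial segment, and NOX5, a calcium-regulated NADPH oxidase, are neighbours on chromosome 15 that share 9 probe sets, but their starts have little in common. SPESP1 (chr15:68930275-68930574, plus strand) had 37 CpG dinucleotides in this window and NOX5 (chr15:69014445-69014744, plus strand) had 0.
SPESP1: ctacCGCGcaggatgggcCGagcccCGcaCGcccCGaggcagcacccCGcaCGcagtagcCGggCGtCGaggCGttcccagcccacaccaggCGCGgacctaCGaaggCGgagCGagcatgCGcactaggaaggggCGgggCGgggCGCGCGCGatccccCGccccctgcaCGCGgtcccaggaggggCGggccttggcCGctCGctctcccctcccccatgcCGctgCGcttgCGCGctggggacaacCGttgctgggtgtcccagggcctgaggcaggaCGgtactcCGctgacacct
NOX5: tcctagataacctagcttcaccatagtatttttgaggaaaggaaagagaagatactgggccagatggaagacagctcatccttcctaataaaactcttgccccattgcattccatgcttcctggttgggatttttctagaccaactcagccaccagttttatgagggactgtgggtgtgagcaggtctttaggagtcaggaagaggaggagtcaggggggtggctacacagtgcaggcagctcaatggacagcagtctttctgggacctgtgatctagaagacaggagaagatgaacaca

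Of the 737 gene sets, 32 (4.34%) rose and 4 (0.543%) fell in HCT116-DKO. Among the 16241 genes with at least 3 probe sets of their own, the same rule gave 2.66% that rose and 0.536% that fell. The remaining 701 gene sets did not pass the rule. Of the 8678 single probe sets, 206 (2.37%) rose, in 64 gene sets, and 7 (0.0807%) fell, in 6 gene sets, against 1.29% and 0.164% of the 261273 probe sets of 1 gene. Of the 206 that rose, 162 were at or below background in HCT116-WT, a count that was not taken over probe sets of 1 gene. The center of the distribution moved little, with a median difference of 0.07 over gene sets and 0.02 over genes, and 25% of gene sets below -0.10 and 25% above 0.29. Gene sets share genes and probe sets of 1 gene set read the same transcripts, so these counts are not counts of independent events.

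**Figure D1:**
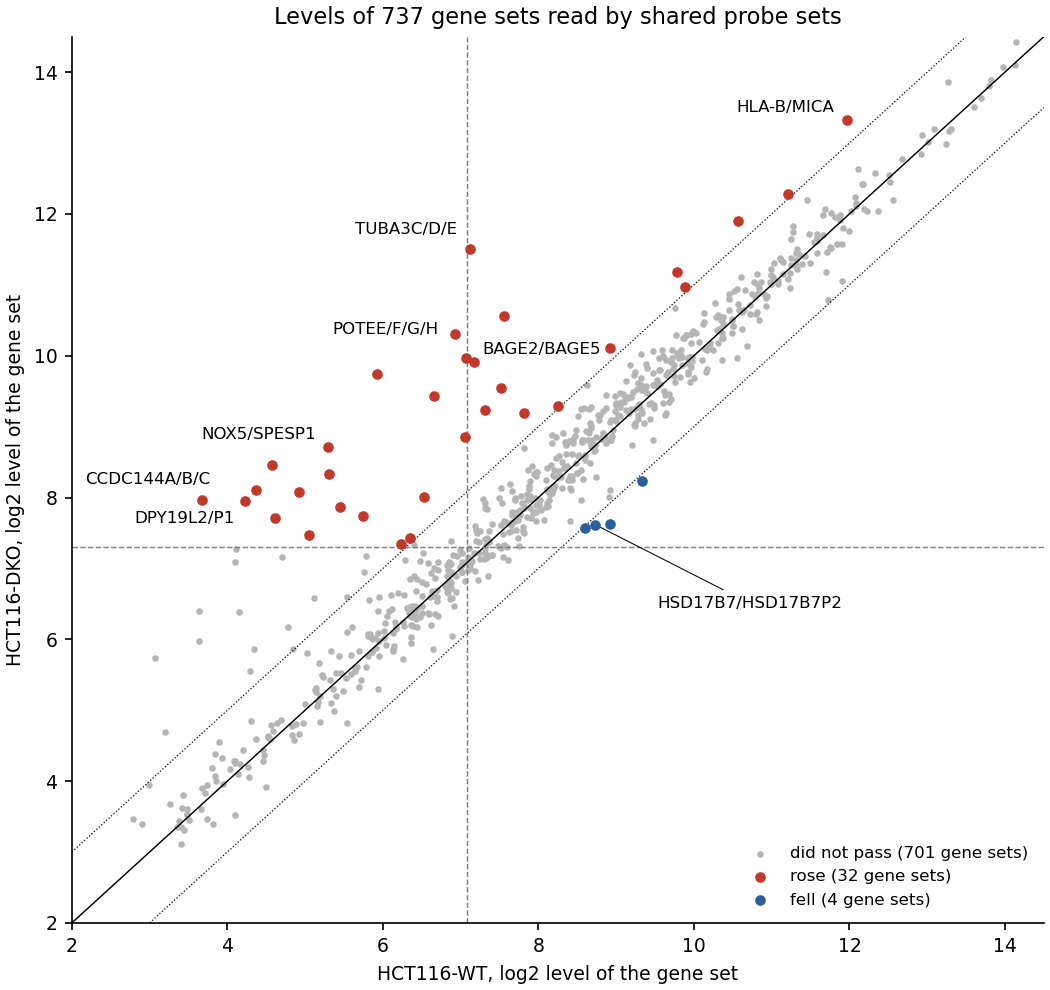
Log2 level of each of the 737 gene sets in HCT116-WT (horizontal axis) and HCT116-DKO (vertical axis), with 32 that rose in red, 4 that fell in blue and 701 others in grey. The solid line marks equal levels, the dotted lines a log2 difference of 1 in either direction and the dashed lines the background of each array. Most of the red points lie left of the background line of HCT116-WT, and the blue points lie close to the lower dotted line.

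A few duplicated families held many of the rises. Gene sets naming a POTE, BAGE, TUBA3, DPY19L2 or CCDC144 gene, a choice made after the values were seen, held 12 of the 32 gene sets and 110 of the 206 probe sets (53.4%) that rose. Without them, 20 of 718 gene sets (2.79%) and 96 of 8482 probe sets (1.13%) rose. Since the families were picked with their rises known, these shares had to be lower, and no families were left out of the single genes. The comparison therefore cannot tell whether these families account for the higher share among gene sets than among genes. Of the 32 gene sets, 27 were higher in HCT116-DKO in every probe set. For 13 the fold could be measured, and for the other 19 it is a bound, because the level in HCT116-WT was at or below background. In 10 of these 19 the bound was under a factor of 2, and these 10 no longer passed when levels below background were set to it. A start at or below background was not particular to shared probe sets. Among the 432 genes that rose by probe sets of their own, 262 also were at or below background in HCT116-WT.

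The probe sets naming TUBA3C, TUBA3D and TUBA3E rose from a level of 7.12 in HCT116-WT to 11.51 in HCT116-DKO, by 4.39 (SD 2.65 over 19 probe sets) or a factor of 21. The level in HCT116-WT was only just above the background of 7.08. All 19 were higher in HCT116-DKO, and 13 of them passed the rule for single probe sets. The 19 probe sets have IDs that lie between those of single genes on chromosome 2, where TUBA3D and TUBA3E are. A probe set of this block went from 6.32 to 13.33 and another from 3.18 to 10.81. A pair of them was already bright in HCT116-WT, at 12.56 and 12.63, and stood at 13.02 and 13.06 in HCT116-DKO.

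The 7 probe sets that name only TUBA3C and TUBA3D have IDs in a block of chromosome 13, where TUBA3C is, and most of them behaved differently. Their level was 8.65 in HCT116-WT against 9.24 in HCT116-DKO, a difference of 0.59 that did not pass the rule. In this block 5 of 7 probe sets differed by 0.05 to 0.74, while 1 went from 3.39 to 11.35 and 1 from 7.03 to 9.89. TUBA3E also had 2 probe sets of its own, too few for the rule, with a level of 5.77 in HCT116-WT against 7.96 in HCT116-DKO. The other alpha-tubulins with shared probe sets, which build the microtubules of most cells, were bright and near equal in both arrays. The level of TUBA1A and TUBA1B was 13.82 in HCT116-WT against 13.90 in HCT116-DKO. The probe sets naming the beta-tubulins TUBB2A and TUBB2B rose from 9.89 to 10.97, by 1.08 (SD 0.29 over 4 probe sets), with 0.99 and no call when the arrays were centered on their medians. Both genes also rose by own probe sets, TUBB2A from 8.74 to 10.21 by 6 and TUBB2B from 6.95 to 10.44 by 4.

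The POTE genes encode ankyrin repeat proteins of primates, known from testis, prostate and many tumors, and their copies are spread over several chromosomes. They were named by 77 shared probe sets in 17 gene sets, of which 76 were higher in HCT116-DKO and 41 passed the rule for single probe sets. The median signal of these probe sets was 5.76 in HCT116-WT against 8.78 in HCT116-DKO, and 31 were above background in HCT116-WT against 55 in HCT116-DKO. Of the 9 POTE gene sets large enough for the rule, 6 rose.

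The largest difference of signals among them was that of ACTBL3, P704P, POTEG and POTEH (ACTBL3 and P704P are now called POTEKP and POTEM), which rose from 5.92 to 9.75, by 3.83 (SD 1.47 over 4 probe sets) and at least 6.36-fold. The probe sets of POTEE, POTEF, POTEG and POTEH rose from 6.93 to 10.30, by 3.37 (SD 0.50 over 6 probe sets), and had the higher bound of the fold, at least 9.32. Those of POTEB, POTEC, POTED and POTEG rose from 7.56 to 10.56, by 3.0 (SD 1.74 over 3 probe sets), a measured factor of 8.02. The other 3 that rose were ACTBL3 with POTEE, POTEF, POTEG and POTEH (2.79), POTEB with POTEC and POTED (2.43, but at least 1.32-fold as a bound), and POTEE with POTEF (1.92). Of the 3 that did not pass, ACTBL3 with POTEG and POTEH differed by 2.99 but reached only 7.09 in HCT116-DKO, below background. POTEB with POTED differed by 0.96 and was below background in both arrays. A pair of probe sets that names only ACTBL3 and P704P was bright in both arrays, with a level of 11.55 in HCT116-WT against 11.79 in HCT116-DKO. By 8 own probe sets, all higher in HCT116-DKO, POTEM rose from 6.45 to 9.40. POTEKP and POTEB, with 3 own probe sets each, did not pass, with differences of 0.78 and 0.62.

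BAGE genes encode tumor antigens that are otherwise found in testis, and on this array they share probe sets with MLL3, now KMT2C, a histone H3 lysine 4 methyltransferase. All 17 of these probe sets were higher in HCT116-DKO, by 1.69 to 7.31, and 15 passed the rule for single probe sets. The 9 that name BAGE2 and BAGE5 rose from a level of 7.07 to 9.97, by 2.90 (SD 1.98) and at least 7.41-fold. The 5 that also name MLL3 rose from 7.17 to 9.91, by 2.74 (SD 0.40), and the 3 that name BAGE2 and MLL3 from 7.53 to 9.55, by 2.02. The IDs of 9 probe sets lie in a block of chromosome 21, with a median difference of 2.90, and those of 8 in a block of chromosome 7, with a median of 2.52, so probe sets of both blocks were higher. By its 87 own probe sets, KMT2C stood at 8.08 in HCT116-WT against 8.26 in HCT116-DKO and did not pass the rule, while BAGE2 by 4 own probe sets rose from 6.89 to 8.88.

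**Figure D2:**
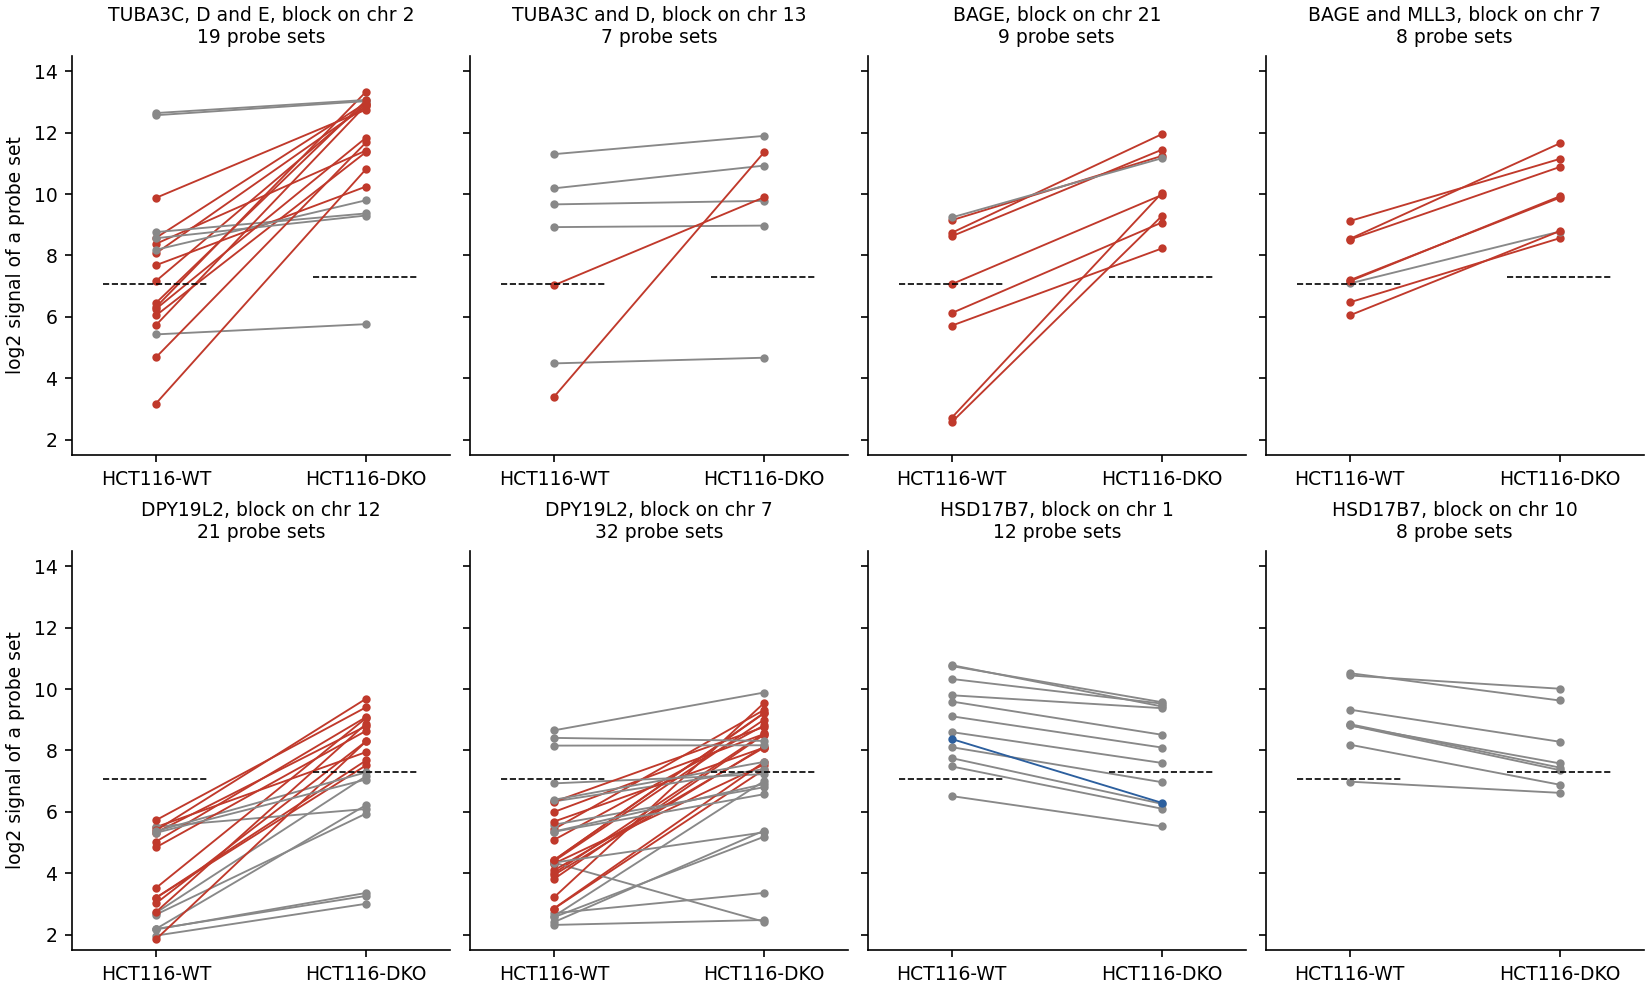
Log2 signal (vertical axis) of single shared probe sets in HCT116-WT and HCT116-DKO (horizontal axis), joined by a line per probe set, in 8 blocks of probe set IDs named by the chromosome of the neighbouring single-gene probe sets. Red lines rose, blue lines fell by the rule for single probe sets, grey lines passed neither, and dashed lines mark the background of each array. Of the 19 TUBA3 probe sets of chromosome 2, 13 rose and the others differed by 0.33 to 1.61, while 5 of the 7 of chromosome 13 stay nearly level. The HSD17B7 lines slope down together in both blocks.

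DPY19L2, needed for the attachment of the acrosome to the sperm nucleus, shares its probe sets with several duplicated copies. The 31 probe sets of DPY19L2 and DPY19L2P1 rose from 4.23 to 7.96, by 3.73 (SD 1.93) and at least 1.84-fold, and 30 of the 31 were higher in HCT116-DKO. Over all 53 probe sets of the family, those of the block on chromosome 12 had a median signal of 3.20 in HCT116-WT against 7.67 in HCT116-DKO. Those of the block on chromosome 7 had medians of 4.41 and 7.86. Both blocks thus lay mostly below background in HCT116-WT and reached only moderate values in HCT116-DKO. DPY19L2 and DPY19L2P1 had 8 probe sets each of their own, and neither passed the rule, with differences of 0.44 and 0.73. DPY19L2P4 did not pass by its 4, with 0.75, while DPY19L2P2 by 15 own probe sets, all higher in HCT116-DKO, rose from 4.90 to 7.49 and at least 1.33-fold.

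The gene sets of CCDC144 and of HYDIN both came up from below background. CCDC144A, CCDC144B and CCDC144C on chromosome 17 (the latter pair now named as pseudogenes) rose from 3.68 to 7.96, by 4.28 (SD 1.73), with all 19 probe sets higher. HYDIN, a protein of the central apparatus of motile cilia, and its partial copy HYDIN2 rose from 5.31 to 8.33, by 3.02 (SD 1.64), with 29 of 30 probe sets higher. The folds, at least 1.84 and at least 2.37, are bounds set by background and much smaller than the differences of the signals. By 10 own probe sets, all higher in HCT116-DKO, CCDC144A rose from 7.01 to 8.03. The single probe set that HYDIN has of its own was at 12.47 in HCT116-WT and 12.24 in HCT116-DKO. PTPN20A, PTPN20B and PTPN20C, names of a tyrosine phosphatase and its copy, rose from 4.57 to 8.46, by 3.89 (SD 1.88 over 5 probe sets) and at least 2.60-fold.

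A shared probe set also arises where 2 genes overlap or lie within each other. SNURF and SNRPN are read from 1 imprinted transcript of chromosome 15, which is normally made from the paternal chromosome only, and SNRPN encodes a protein of the splicing machinery. Their 17 shared probe sets rose from a level of 4.61 to 7.71, by 3.09 (SD 2.11) and at least 1.54-fold, with 16 of 17 higher. Single probe sets went from 3.0 to 9.31 and from 2.56 to 8.52. By contrast, 6 probe sets of SNRPN alone stood at 3.57 in HCT116-WT and 3.05 in HCT116-DKO, below background in both arrays. The CpG count of the SNURF promoter was 18.

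The 9 probe sets of NOX5 and SPESP1, the pair of neighbours printed above, rose from 5.30 to 8.71, by 3.41 (SD 1.63) and at least 3.10-fold. All 9 were higher in HCT116-DKO, and only 1 was above background in HCT116-WT against 7 in HCT116-DKO. The 25 probe sets of NOX5 alone were at 7.44 in HCT116-WT and 7.51 in HCT116-DKO. STON1, an adaptor of endocytosis, and its read-through product with GTF2A1L, a germ cell counterpart of a general transcription factor subunit, rose from 5.75 to 7.74, by 1.99 (SD 0.65 over 7 probe sets) and at least 1.58-fold. The 10 probe sets that name GTF2A1L as well had a level of 3.63 in HCT116-WT against 5.98 in HCT116-DKO, below background in both, though all 10 were higher in HCT116-DKO and 3 passed the rule for single probe sets. LAT, an adaptor of T cell receptor signaling, and SPNS1, a lysosomal transporter, rose from 7.82 to 9.19, by 1.38 (SD 1.36 over 17 probe sets), while SPNS1 by 17 probe sets of its own was at 9.90 in HCT116-WT and 9.88 in HCT116-DKO.

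Among genes of digestion and metabolism, the trypsinogens PRSS1, PRSS2, PRSS3 and TRY6 (now PRSS3P2) rose from 4.92 to 8.08, by 3.16 (SD 1.72 over 3 probe sets), with a bound just under a factor of 2. Their 3 single signals went from 3.10 to 8.89, from 6.65 to 9.20 and from 4.92 to 8.08. The own probe sets of the family differed among themselves, since PRSS3 rose from 6.01 to 8.39 by 5 probe sets and PRSS1 was at 5.81 in HCT116-WT and 5.57 in HCT116-DKO by 6. AKR1C1 and AKR1C2, aldo-keto reductases that act on steroids, rose from 6.53 to 8.0, by 1.47 (SD 1.0 over 18 probe sets) and at least 1.90-fold. For ZNF419 and ZNF773, neighbouring KRAB zinc finger genes of chromosome 19, the level rose from 5.44 to 7.87, by 2.43 (SD 0.83 over 3 probe sets) and at least 1.73-fold. It was the only 1 of 28 zinc finger gene sets tested that passed the rule, beside 32 of all 737 gene sets that rose. By 10 own probe sets, ZNF419 rose from 5.87 to 7.59. ZNF773 did not pass by its 5, at 5.98 in HCT116-WT against 7.07 in HCT116-DKO.

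RGPD1 and RGPD2, copies of a part of the nuclear pore gene RANBP2, rose from 4.37 to 8.10, by 3.73 (SD 1.73 over 3 probe sets) and at least 2.03-fold. Only 1 of the 3 probe sets was above background in HCT116-DKO, at 8.56, and the others were at 6.16 and 7.01. The level of 8.10 thus rests on that probe set. This rise stood alone in the family. The 11 other RGPD gene sets that were tested did not pass the rule, and over all 113 shared RGPD probe sets the median difference was 0.04, with 1 that rose. NBPF22P, NBPF4 and NBPF6 rose from 7.05 to 8.85, by 1.80 (SD 1.07 over 7 probe sets) and at least 3.41-fold. The largest gene set, NOMO1, NOMO2 and NOMO3 with 114 probe sets, was at 11.88 in HCT116-WT and 11.91 in HCT116-DKO.

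**Figure D3:**
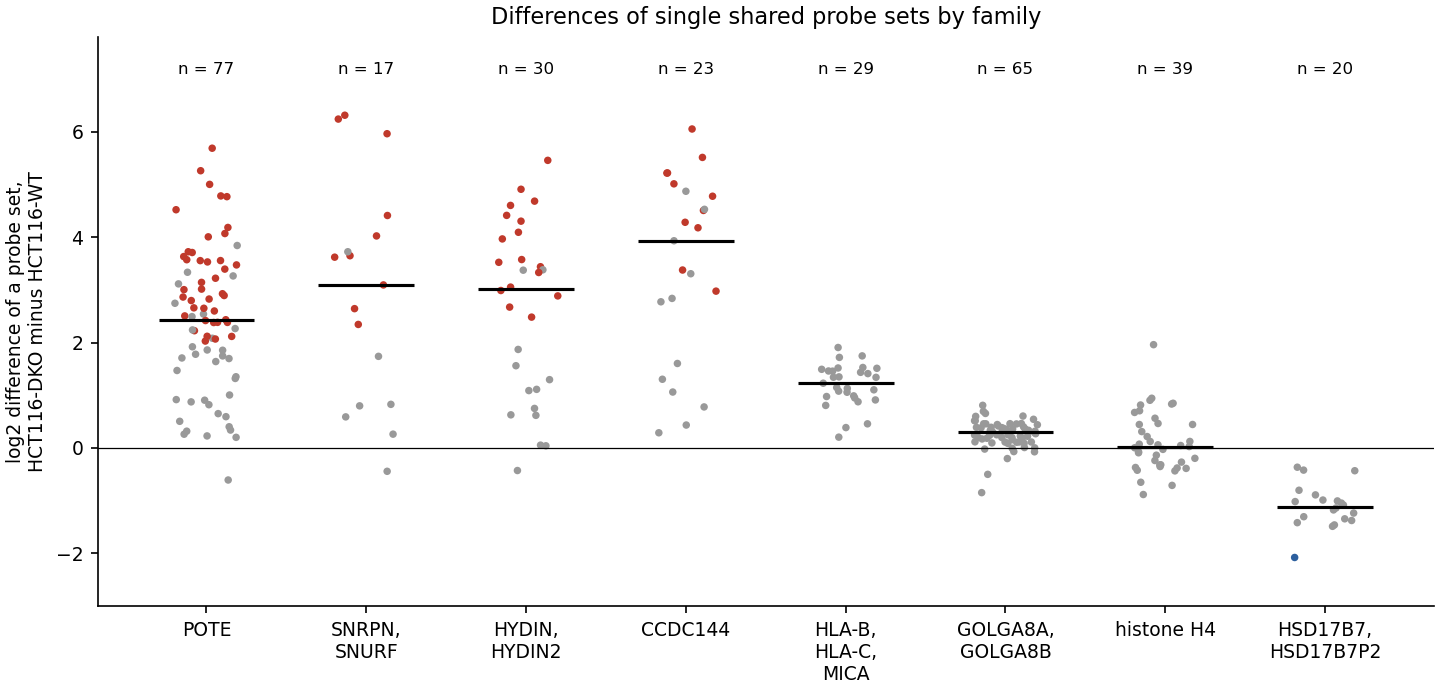
Log2 difference of single shared probe sets, HCT116-DKO minus HCT116-WT (vertical axis), in 8 families with the number of probe sets above each. Red points rose and blue points fell by the rule for single probe sets, grey points passed neither, and the black bar is the median. POTE, SNRPN with SNURF, HYDIN and CCDC144 spread widely up to 6.31, whereas HLA-B, HLA-C and MICA cluster around 1.23 and HSD17B7 around -1.11.

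The class I genes HLA-B and HLA-C, which present peptides to T cells, and MICA, a stress-induced ligand of natural killer cells, showed a smaller and more even difference at high signal. All 29 of their shared probe sets were higher in HCT116-DKO, by 0.21 to 1.91 with a median of 1.23, and none reached the factor of 4. HLA-B with MICA rose from 11.97 to 13.32, by 1.35 (SD 0.33 over 7 probe sets), a factor of 2.55. HLA-B with HLA-C rose from 10.57 to 11.91, by 1.34 (SD 0.36 over 13 probe sets), a factor of 2.53. The 9 probe sets that name all 3 genes rose from 11.21 to 12.29, by 1.08 (SD 0.44), and this gene set lay closest of the 3 to the threshold, with 0.99 and no call when the arrays were centered on their medians. The 3 other HLA gene sets that were tested did not pass, and they were below background in both arrays. Of the genes named here, none had 3 probe sets of its own, so the values rest on shared probe sets only. Among 13 interferon-linked gene sets tested, 7 were below background in both arrays and 0 passed the rule, where 32 of all 737 gene sets rose. IRF9 with RNF31 went from 8.68 to 9.28.

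Each of the 4 gene sets that fell was above background in both arrays. HSD17B7, an enzyme of cholesterol and estrogen synthesis, and its copy HSD17B7P2 fell from 8.73 to 7.62, by 1.11 (SD 0.41), with all 20 probe sets lower in HCT116-DKO. The IDs of 12 lie in a block of chromosome 1, with a median difference of -1.11, and those of 8 in a block of chromosome 10, with a median of -1.14, so both blocks were lower to a like degree. HSD17B7P2 also fell by its 7 own probe sets, from 8.09 to 6.82. RBPMS, an RNA-binding protein, and SDHALP2 (now SDHAP2) fell from 8.93 to 7.62, by 1.30 (SD 0.23 over 3 probe sets). By 13 own probe sets RBPMS did not pass the rule, at 7.69 in HCT116-WT against 6.97 in HCT116-DKO. DBNDD2 and its read-through gene SYS1-DBNDD2 fell from 9.33 to 8.24, by 1.09 (SD 0.52 over 5 probe sets). DBNDD2 by 3 own probe sets did not pass either, at 7.93 in HCT116-WT against 7.86 in HCT116-DKO. The olfactory receptors OR2A4 and OR2A7 fell from 8.60 to 7.56, by 1.04 (SD 0.34 over 8 probe sets). Of 25 olfactory receptor gene sets tested, 22 were below background in both arrays, and this was the only 1 that passed the rule. Not every gene of the class used for background was thus dim in these cells.

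Histone genes had many shared probe sets, since members of a class encode nearly the same protein, and their levels were close in both arrays. Of 10 histone gene sets tested, 0 passed the rule, where 32 of all 737 gene sets rose and 4 fell. Over 130 probe sets of core histones the median difference was 0.01. The gene set with the most genes, 14 of histone H4, was at 9.16 in HCT116-WT and 9.19 in HCT116-DKO over 39 probe sets. H3F3A and H3F3B, the genes of the replacement histone H3.3, were at 12.03 in HCT116-WT and 12.04 in HCT116-DKO. Against this, 7 of the 130 single histone probe sets rose and 2 fell, where 2.37% of all shared probe sets rose and 0.0807% fell. A probe set that names HIST1H2AD and genes of histone H3 went from 4.79 to 11.92, an increase chosen for mention after its value was seen. The 2 that fell both name H2BFS and HIST1H2BK, 1 from 11.30 to 8.44 with an ID in a block of chromosome 21 and 1 from 11.54 to 8.78 in a block of chromosome 6.

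Single probe sets also passed their rule in gene sets too small for the rule for gene sets. That of DPY19L2P1 and DPY19L2P3 rose from 3.81 to 8.51. OR3A2 and OR3A3, olfactory receptors of chromosome 17, shared 2 probe sets that rose from 6.20 to 10.79 and from 7.25 to 10.53. OR3A2 had 1 probe set of its own, at 6.66 in HCT116-WT against 9.86 in HCT116-DKO, and OR3A3 had 1, at 7.70 and 7.60. A probe set of HIST2H2BF and HIST2H3PS2 rose from 5.45 to 8.17, and the probe set that also names HIST2H2BA rose from 5.63 to 8.61. In the opposite direction, a probe set of MSX2, a homeobox transcription factor, and its copy MSX2P1 fell from 10.16 to 7.56. Among the 751 probe sets of all gene sets of 1 or 2 probe sets, 15 rose and 3 fell. Of all 8678 shared probe sets, 206 (2.37%) rose and 7 (0.0807%) fell.

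Most other duplicated families showed no gene set that passed the rule in either direction. Of all 737 gene sets, 32 rose and 4 fell, so 0 calls in a family of this size do not set it apart. Of 15 gene sets of UDP-glucuronosyltransferases, enzymes that conjugate drugs and bilirubin, 12 were below background in both arrays, and of 9 of cytochromes P450, 8 were. Of 16 gene sets of killer cell and leukocyte receptors, 9 were below background in both. Keratins and keratin-associated proteins (12 tested), glutathione S-transferases and sulfotransferases (7), defensins (5, all below background in both arrays), chemokines (5), complement and heat shock genes (4), duplicated kinases (4), ribosomal proteins (3), globins (2) and HOX genes (2) gave 0 calls as well. Within them GSTT2 with GSTT2B went from 8.59 to 9.27, JUP with KRT19 from 11.45 to 12.20 and HOXC4 with HOXC5 from 6.89 to 6.05, all short of the threshold. The shared probe sets of GOLGA8A and GOLGA8B, genes of Golgi proteins, had a small median difference of 0.30, with a range from -0.85 to 0.81. Of these, 58 of 65 were higher in HCT116-DKO, beside 58.8% of all shared probe sets. Among 446 gene sets above background in both arrays that did not pass the rule, 402 differed by less than 0.5. Families related to the germline and to tumor antigens, gave 9 of 41 gene sets that rose, and all 9 name a POTE or BAGE gene. These made up 12 of the 41, and of the other 29 gene sets of the list, 0 rose and 0 fell. The list did not hold every gene set tied above to testis or sperm. Those of TUBA3C with TUBA3D and TUBA3E, of DPY19L2 with DPY19L2P1 and of NOX5 with SPESP1 rose and were outside it. Of the 41 gene sets, 24 were below background in both arrays.

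The share that rose was also taken by the chromosomes of the named genes. Of 135 gene sets of several chromosomes, 14 (10.4%) rose, against 18 of 565 of 1 chromosome (3.19%). POTE and BAGE gene sets, picked after the values were seen, made up 8 of the 14. Without these families, 6 of 125 (4.80%) and 17 of 563 (3.02%) rose. With regard to the number of genes named, 20 of 544 gene sets of 2 genes (3.68%) rose, 11 of 143 with 3 or 4 genes (7.69%) and 1 of 50 with 5 or more (2.0%). POTE, BAGE, TUBA3 and CCDC144 gene sets were among those 11, and the shares without them were not computed. Genes were counted by the symbols of the platform, so PTPN20A and PTPN20B, now both PTPN20, counted separately.

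**Figure D4:**
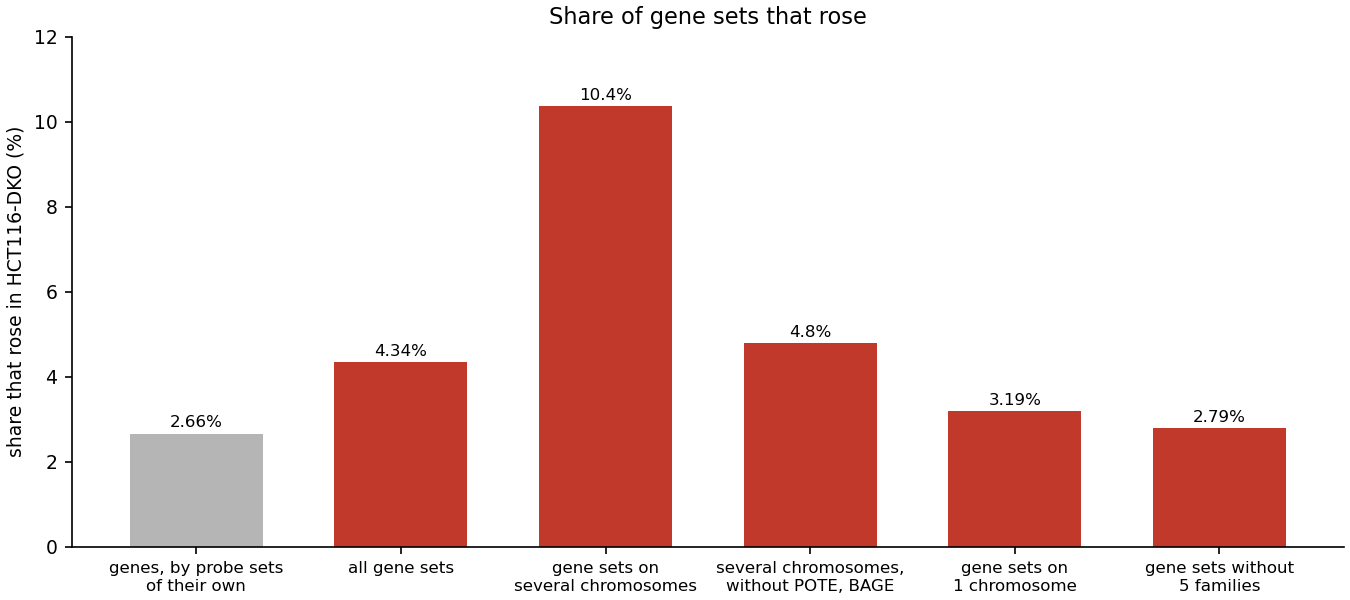
Share of gene sets that rose in HCT116-DKO, in percent (vertical axis from 0), for all 737 gene sets and for parts of them (red), beside the share among 16241 genes by probe sets of their own (grey). Of the shares plotted, that of gene sets of several chromosomes was highest (10.4%), of which it was 4.80% without POTE and BAGE, and it was 2.79% for all gene sets without the POTE, BAGE, TUBA3, DPY19L2 and CCDC144 families. These families were picked after the values were seen, and none were left out of the grey bar.

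The shared difference and the mean own difference of the same genes lay a median of 0.22 apart over 510 gene sets. Of the 737 gene sets, 227 had no gene with 3 probe sets of its own, and 595 of 1414 named genes were read on this array by shared probe sets only. Among the 32 gene sets that rose, 9 had no gene to compare with. In 8 of the other 23, at least 1 of the named genes also rose by its own probe sets, and in 15 none did. In the opposite direction, 18 gene sets named a gene that rose by its own probe sets, and 8 of these 18 rose. Each of these counts starts from values picked for their size, so a smaller value on the other side partly follows from the choice. Where at least 2 genes of a gene set had own levels (198 gene sets), the shared difference lay between the own differences in 86, above all of them in 63 and below all of them in 49. Across 510 gene sets the Pearson correlation of the shared difference with the mean own difference was 0.52, given as a description, since both come from the same pair of arrays and gene sets share genes.

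**Figure D5:**
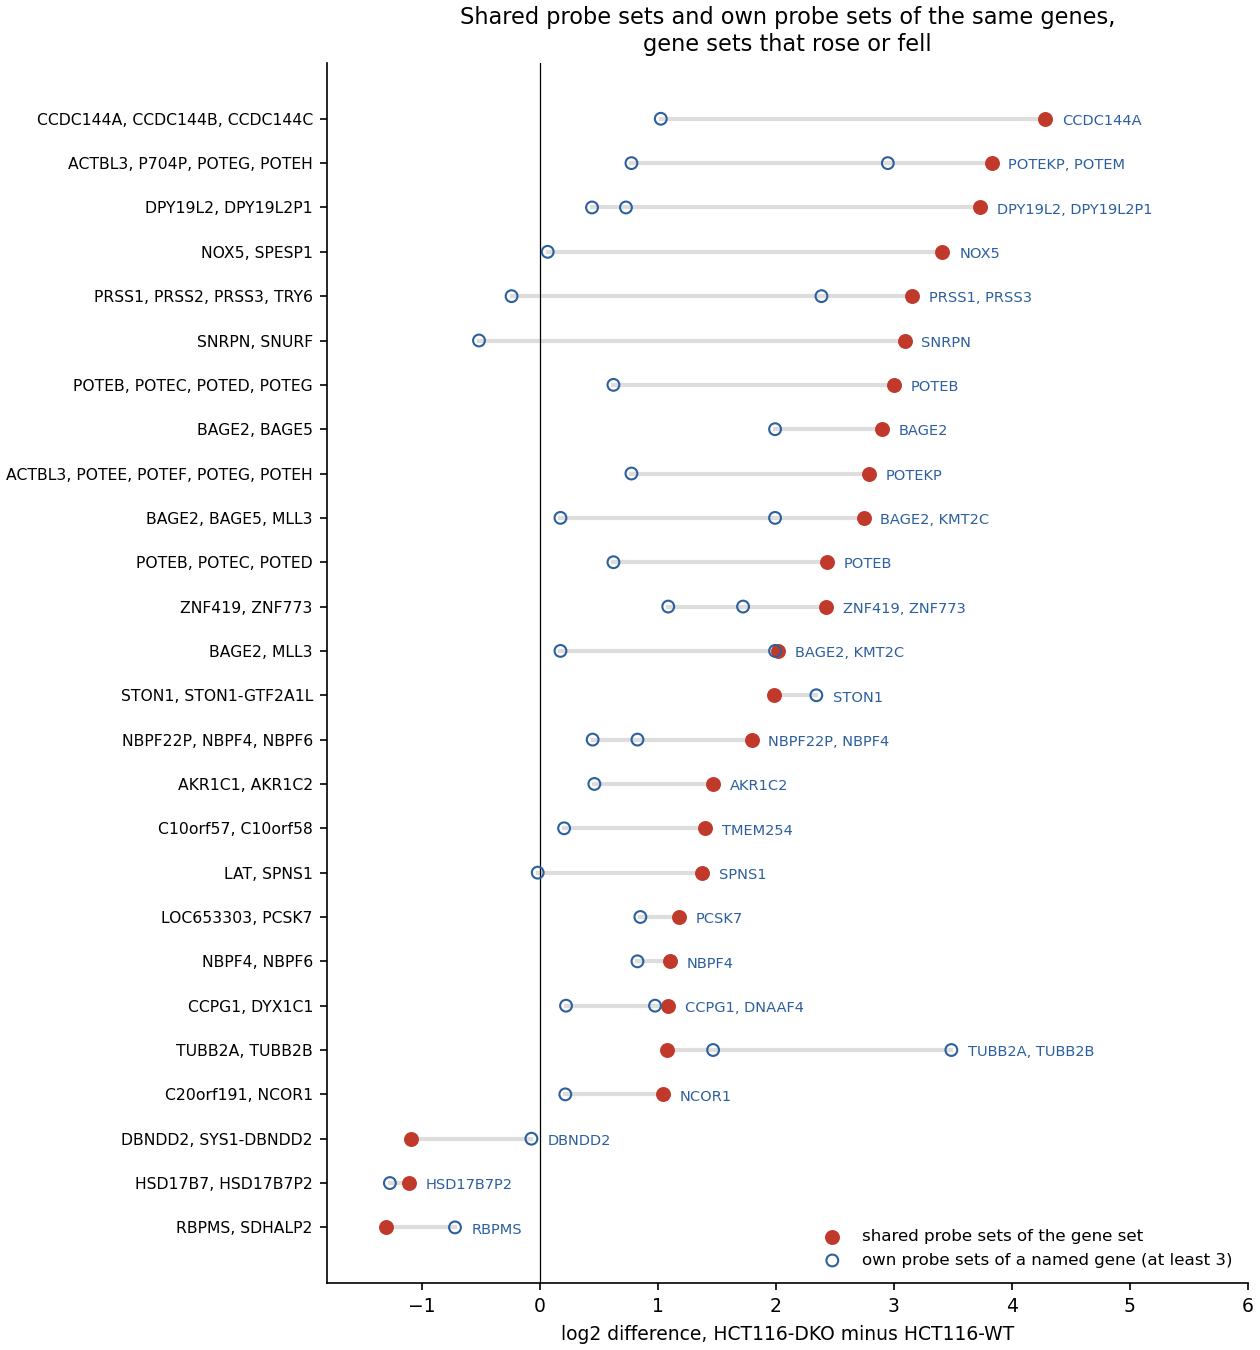
Log2 difference, HCT116-DKO minus HCT116-WT (horizontal axis), of the shared probe sets of each gene set that rose or fell (red) and of the genes it names by at least 3 probe sets of their own (open blue circles, named at the right), for the gene sets with such a gene. In most rows the red point lies to the right of every circle, as for SNRPN with SNURF (3.09 against -0.52), whereas for TUBB2A and TUBB2B both circles lie to its right. The rows were picked by their shared difference, so the position of the red point partly follows from that choice. Over all 198 gene sets with own levels of at least 2 genes, the shared difference lay above all of them in 63 and below all in 49.

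For the promoters of the genes in these gene sets, a sequence was at hand for 34 of the 58 genes named in the 32 gene sets that rose. The median number of CpG dinucleotides per window was 19, with a range from 0 to 56, against 12 in all promoters. At least 10 CpG (the letters CG, the same on both strands) were found in 21 of the 34 (61.8%) and in 53.7% of all promoters. The spread within gene sets was wide. POTEC and POTED had 36 and 37, POTEG, POTEH and POTEM had 9 each, PRSS1 had 4, and NBPF4 and NBPF6 had 2 each. POTEG and POTEM were identical over all 300 bases, and POTEG and POTEH over 99.3%. HLA-B and HLA-C, with 22 and 19 CpG, matched at 88.5% of aligned positions. DNA methylation was not measured on these arrays, and the windows are descriptions of the reference sequence.

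The targeted genes, read by probe sets of their own, were both lower in HCT116-DKO, DNMT1 at 10.63 in HCT116-WT against 9.36 in HCT116-DKO and DNMT3B at 8.32 and 6.91, and neither had a shared probe set. The arrays had median signals of 8.28 and 8.37 and correlated with r = 0.95 over the shared probe sets. Of 9 markers of colon epithelium, 6 were above background in both arrays, with EPCAM at 11.81 in HCT116-WT against 11.43 in HCT116-DKO, and none of the markers passed the rule. Of 5 blood markers, 1 was above background in HCT116-WT against 0 in HCT116-DKO, of 4 endothelial markers 0 in either, and of 5 fibroblast markers 3 and 2, with levels between 3.54 and 8.64 in HCT116-WT and between 3.48 and 8.64 in HCT116-DKO. In RNA from a whole culture, expression in few cells at a high level cannot be told apart from expression in many cells at a low level.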

How the data were processed

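For each probe set, the deposited values are log2 signals of the HCT116-WT and HCT116-DKO arrays. The submitters' processing notes name RMA, and the methods of the study add Expression Console and Partek, without saying which of them wrote these values. With 1 array per line, the precision is limited by the number of arrays.

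Probe sets were assigned to genes through GEO's platform annotation of 2014. Of 1844 symbols in the shared probe sets, 1461 were current in the RefSeq table of GRCh38.p14, 342 were updated and 41 had no match. That table gave names and chromosomes, and promoter windows of 300 bases came from RefSeq on the same build. Probe sets carry no position, so a block of IDs was placed by the nearest probe sets of 1 gene on either side (99.8% of such neighbours shared a chromosome). Of 8381 placed members, 99.1% lay on a chromosome of a named gene.

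Levels were computed by median polish with numpy 2.4.6 and pandas 2.3.3 in Python 3.11.15, and promoter pairs were aligned with Biopython 1.88. The procedure was tested on simulated data. The text names the 15 gene sets with the largest increase and up to 10 with a decrease, up to 3 changed gene sets per family (or 2 where none changed) out of 28 families, and the leading probe sets of small gene sets, though not all of those unchanged. Names outside this rule were chosen after their values were seen. The members, families and rules were chosen with earlier results of these data known.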

Additional observations from a re-analysis of the deposited data

How the results depend on the processing

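No paired analysis was possible because each line had 1 array, and for the same reason no replicate could be left out. The counts of gene sets that rose and fell (32 and 4) stayed within a factor of 1.5 under quantile normalization (30 and 4), median centring (28 and 5), single olfactory receptor probe sets as background (29 and 4), no demand on background (47 and 4), levels below background set to it (22 and 4), a minimum of 5 probe sets (24 and 3), no demand on direction (32 and 4), the mean in place of median polish (40 and 4) and symbols updated first (32 and 4). They moved with the background at the 99th percentile (19 rose), a log2 threshold of 0.58 (53 and 12) or 2 (18 and 0), a minimum of 2 probe sets (8 fell), gene sets that share a gene joined into 1 (23 rose, 2 fell), and probe sets at even places of the ID order only (20 and 1). Single probe sets that rose or fell (206 and 7) numbered 405 and 87 at a threshold of 1 and 124 and 0 at 3, and 4 fell against the background of single olfactory receptor probe sets and 19 without a demand on background. Chosen after the data were seen, leaving out the POTE, BAGE, TUBA3, DPY19L2 and CCDC144 gene sets gave 20 gene sets and 96 probe sets that rose. The median difference over gene sets was 0.07, and -0.01 and -0.02 after quantile normalization and median centring, where the median over genes was -0.07 in both. Gene sets in which a named gene also rose by its own probe sets numbered 8, 7 after quantile normalization and 9 with own levels from 1 probe set. Of the 36 calls, 4 were lost after median centring (HLA-B with HLA-C and MICA, and TUBB2A with TUBB2B, both at 0.99, CCPG1 with DYX1C1, and C20orf191 with NCOR1), 2 after quantile normalization (the latter pair) and 1 by the mean (LOC653303 with PCSK7, 0.92 against 1.18). With levels below background set to it, 10 rises were lost: CCDC144, DPY19L2, SNRPN with SNURF, PRSS, ZNF419, STON1, AKR1C, POTEB with POTEC and POTED, NBPF4 with NBPF6, and CCPG1. At the 99th percentile 13 were lost, HYDIN, PTPN20 and RGPD1 with RGPD2 among them.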
